A study of Mus musculus with 25 samples.

Results

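The 3 near-equal mixtures of αTC1 and βTC6 cells, labelled 40%, 50% and 60% αTC1, were compared peak by peak with the accessibility that the pure lines predict for their composition. The comparison used 3 mixture libraries and 4 pure libraries, namely replicates 4 and 5 of each line, of the 19 ATAC-seq libraries and the 25 libraries in all. αTC1 (alpha TC1 clone 6) and βTC6 (beta-TC-6) are established mouse pancreatic endocrine tumor lines, each of them a single cell line grown in its own supplemented DMEM and given no treatment. The mixtures are pools made by cell number, and the remainder of each was βTC6 (60%, 50% and 40%). Each composition was sequenced once, and the 3 compositions are not replicates of 1 condition. The labels do not state that pure replicates came from separate cultures, so every p-value below measures the spread between these libraries.

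ATAC-seq inserts sequencing adapters where a transposase reaches the DNA, so reads accumulate over open promoters and enhancers. In a pool of nuclei each cell contributes its own reads, and a peak is therefore predicted to lie at the average of the pure lines weighted by their cell fractions. Alpha cells of the islet secrete glucagon and beta cells secrete insulin, and these lines have been used as models of both. A pool cannot separate fewer cells of a line from less accessible DNA per cell.

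Each line carried the RNA of its labelled type. In RNA-seq libraries of the pure lines, Gcg (the glucagon precursor) stood at an FPKM of 12929 ± 1282 in αTC1 and 229.5 ± 50.4 in βTC6 (SD, n = 3 each). Ins2, a gene for insulin, stood at 0.34 ± 0.26 in αTC1 and 30081 ± 6150 in βTC6. Pdx1, a beta-cell transcription factor, was listed at 0 in all αTC1 libraries and reached 111.4 ± 8.1 in βTC6. Of the markers of other cell types, Sst (somatostatin, the delta-cell hormone) stood at 255.6 ± 61.9 in βTC6 and was listed at 0 in αTC1, and Ppy (pancreatic polypeptide) at 25.96 ± 23.66 in βTC6. In αTC1, Cela1 (an acinar elastase) stood at 3.65 ± 0.06 and Sox9 (a duct factor) at 4.24 ± 0.19, against 0.41 ± 0.36 and a listing at 0 in βTC6. The other markers of acinar, duct, fibroblast, epsilon and immune cells, and the delta-cell factor Hhex, had means of at most 0.48 in either line.

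The results turn on a few open regions, of which 200 bases each are given here from the mm9 genome. For Gcg they lie directly upstream of the start site, and for the others at the centre of the peak. The first carries the Gcg promoter, where the mixtures lay close to the labelled expectation. The second lies in a stretch of chromosome 11 where 49 of 60 peaks stood at 1 read in every αTC1 library, and the third, in capitals throughout because every base falls in a 31-base word that also occurs in the mitochondrial genome, was above expectation in the mixtures. The last 3 were above (near Gm11161) or below (near Kif11 and Six2) expectation in every mixture. In these 3 the capitals mark the letters CAGCTG, an E-box bound by helix-loop-helix factors, or GGGCGG, the reverse complement of CCGCCC and a GC box of Sp and KLF factors. The sequence near Six2 held none of the motifs searched.
Gcg promoter (chr2:62321708-62321907, minus strand): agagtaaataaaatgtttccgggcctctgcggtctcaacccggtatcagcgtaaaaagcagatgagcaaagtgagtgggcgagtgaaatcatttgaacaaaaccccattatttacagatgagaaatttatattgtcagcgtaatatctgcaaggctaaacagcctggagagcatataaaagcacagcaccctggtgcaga
Peak of that stretch near Rgs9 (chr11:109131137-109131336, plus strand): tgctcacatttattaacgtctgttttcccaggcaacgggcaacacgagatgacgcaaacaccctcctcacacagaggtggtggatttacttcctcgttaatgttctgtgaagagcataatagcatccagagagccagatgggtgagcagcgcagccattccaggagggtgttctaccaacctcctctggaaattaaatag
Peak near Gm10925 (chr1:24620603-24620802, plus strand): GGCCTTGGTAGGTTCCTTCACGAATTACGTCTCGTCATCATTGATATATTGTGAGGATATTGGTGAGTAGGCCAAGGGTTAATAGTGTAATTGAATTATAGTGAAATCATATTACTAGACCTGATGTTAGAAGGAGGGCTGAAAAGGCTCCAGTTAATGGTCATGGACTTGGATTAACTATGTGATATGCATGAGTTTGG
Peak near Gm11161 (chr1:27560694-27560893, plus strand): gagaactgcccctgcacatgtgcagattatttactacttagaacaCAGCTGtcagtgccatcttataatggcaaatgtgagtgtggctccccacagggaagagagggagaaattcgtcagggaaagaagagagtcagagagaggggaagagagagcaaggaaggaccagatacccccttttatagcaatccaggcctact
Peak near Kif11 (chr19:37450589-37450788, plus strand): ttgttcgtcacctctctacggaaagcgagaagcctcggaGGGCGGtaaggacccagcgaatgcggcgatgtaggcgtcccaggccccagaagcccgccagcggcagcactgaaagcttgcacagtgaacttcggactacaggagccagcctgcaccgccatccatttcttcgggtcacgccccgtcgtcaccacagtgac
Peak near Six2 (chr17:86257387-86257586, plus strand): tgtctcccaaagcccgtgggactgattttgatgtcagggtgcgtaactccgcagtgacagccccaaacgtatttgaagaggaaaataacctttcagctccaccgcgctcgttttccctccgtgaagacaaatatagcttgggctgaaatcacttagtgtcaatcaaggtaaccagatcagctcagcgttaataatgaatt

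The 7 libraries held 5322395 to 10374903 reads in the 65053 consensus peaks, and the mixtures 5322395 to 6900524. The deposited values are TMM-normalized read counts, called levels here. Every value was a whole multiple of the level of 1 read, and no value was 0, so a level of 1 read may also stand for an empty peak. Expected levels were formed on the linear scale, and a departure is log2(observed level + 1) minus log2(expected level + 1), which understates changes of low peaks. βTC6 replicate 5, one of the pure libraries behind the expected levels, stood apart from the other βTC6 replicates in how its level was spread over chromosomes. Its chromosome 2 median lay 0.22 below the βTC6 mean on the log2 scale, whereas replicates 1 to 4 lay 0.05 to 0.07 above it. Values with a single βTC6 replicate as the reference are given beside the results that rest on it.

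With replicates 4 and 5 as the reference, no single peak passed the test for a departure from the labelled composition. With the labelled fractions, 0 of 65053 peaks were called above expected (0% of peaks) and 0 below (0%) at a false discovery rate (FDR) under 5% in the limma-moderated test, and the smallest FDR was 0.448. At an unadjusted p under 0.05, 474 peaks (0.729%) lay above and 3165 (4.87%) below. The edgeR quasi-likelihood test on the recovered reads called 5 peaks, 4 above and 1 below. The median standard error of a departure was 0.27, so the test resolved changes of 1 peak only where they were several times that size. Leaving out βTC6 replicate 5 gave 48 called peaks, 22 above and 26 below, with an error that then holds no spread between βTC6 replicates and assumes the lone library to vary like the other groups. Weighted averages made from pure replicates 1 to 3, libraries that were never mixed, gave 0 peaks above (0%) and 8 below (0.0123%) in the same test. Each averages 1 αTC1 with 1 βTC6 library, and their median standard error was 0.22. They also hold any difference between replicates 1 to 3 and replicates 4 and 5, so they are not a like-for-like background. With pure replicates 1 to 3 as the reference the mixtures gave 5846 called peaks, 1874 above and 3972 below, and with all 5 pure replicates 165, so the absence of calls depends on the reference.

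The mixtures carried more αTC1 signal than their labels state. A single αTC1 share and a single scale factor, fitted to each mixture over all peaks, gave 42.8% αTC1 for the mixture labelled 40%, 51.1% for that labelled 50% and 65.8% for that labelled 60%. Each pairing of 1 αTC1 with 1 βTC6 library gave 41.7% to 45.5%, 50.0% to 53.2% and 64.3% to 66.9% for the same mixtures, so the label lay within the range of the pairings at 50% αTC1 and below it at 40% and 60%. The fitted scale factors were 0.954, 0.948 and 0.924. All 9 mixtures of the series were fitted above their labels, by 0.58 to 7.67 percentage points, and the mixtures labelled 40%, 50% and 60% by 2.81, 1.13 and 5.78 points. Without βTC6 replicate 5 the near-equal mixtures came to 43.2%, 51.4% and 65.9%, and with it as the only βTC6 library to 46.1%, 54.2% and 68.0%.

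**Figure D1:**
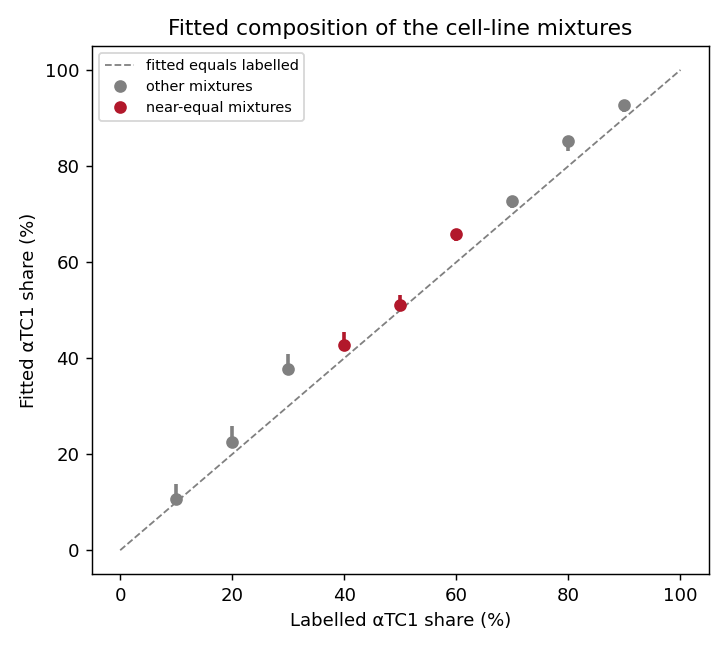
Fitted against labelled αTC1 share (both in %) of each mixture, 1 library each, with vertical bars from the lowest to the highest fit over single pairs of pure libraries and a dashed line where both shares are equal. The near-equal mixtures, in red, sit at 42.8%, 51.1% and 65.8%, all above the dashed line.

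Peaks biased to either line moved apart from the labelled expectation in opposite directions. Classes were taken from pure replicates 1 to 3, which enter neither the mixtures nor the expected levels, and held 3135 αTC1-biased peaks (4.82% of peaks), 8157 βTC6-biased peaks (12.5%) and 53761 others. The total of 11292 biased peaks dropped to 2291 at a pseudocount of 5. The αTC1-biased peaks had median departures of 0.05, 0.02 and 0.07 in the 40%, 50% and 60% αTC1 mixtures. The βTC6-biased peaks had medians of -0.11, -0.10 and -0.28, and in the mixture labelled 60% only 21.6% of them lay above expectation, against 60.1% of the αTC1-biased peaks. The other peaks had medians of -0.05, -0.07 and -0.09, close to those over all peaks of -0.05, -0.07 and -0.11. None of the classes held a peak called at the FDR threshold, and 546 (6.69%) of the βTC6-biased peaks were below expectation at an unadjusted p under 0.05, against 4.87% of all peaks. With βTC6 replicate 4 alone as the reference, the βTC6-biased medians were -0.04, -0.03 and -0.21, and with replicate 5 alone -0.17, -0.16 and -0.33.

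**Figure D2:**
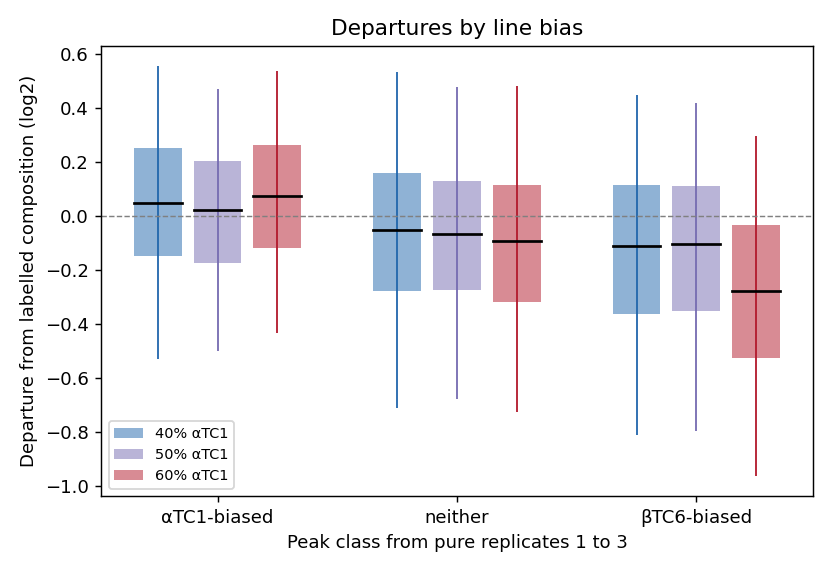
Departures from the labelled composition (log2 of observed level + 1 over expected level + 1) of αTC1-biased, unbiased and βTC6-biased peaks in each near-equal mixture, with the median as a black line, the middle 50% of peaks as a box and the 5% to 95% range as a thin line. The βTC6-biased box of the 60% αTC1 mixture has its median at -0.28 and lies wholly under the dashed line at 0.

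After the fitted share and scale were used, the βTC6-biased peaks had medians of -0.00, -0.01 and -0.03 and the αTC1-biased peaks 0.04, 0.07 and 0.08. With βTC6 replicate 4 alone the medians were 0.07, 0.05 and 0.02 in βTC6-biased and 0.02, 0.04 and 0.06 in αTC1-biased peaks. With replicate 5 alone they were 0.02, 0.01 and -0.01 in βTC6-biased and -0.00, 0.03 and 0.05 in αTC1-biased peaks. An expectation formed from the weighted averages of log2 levels left the αTC1-biased peaks 0.66, 0.57 and 0.57 above it and the βTC6-biased peaks 0.38, 0.45 and 0.33 above it, each further from 0 than under the labelled linear expectation. For the other peaks it left 0.03, 0.02 and -0.01, nearer to 0 than the labelled linear one. Around the fitted expectation the middle 50% of all peaks spanned -0.22 to 0.22, -0.21 to 0.20 and -0.22 to 0.22. The scatter fell with the level of the peak. In the 13011 peaks with the lowest levels the SD of departures was 0.50, 0.46 and 0.47, and in the 13011 with the highest it was 0.20, 0.19 and 0.20. The log2 levels of the pure replicates 4 and 5 differed by an SD of 0.48 in αTC1 and 0.57 in βTC6. That is a difference between single libraries. A departure sets 1 library against a fitted average of 4 pure libraries, so these SDs are not like measures.

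Against the fitted expectation, again 0 peaks were called above (0%) and 0 below (0%) by limma, with a smallest FDR of 0.526, while 1000 (1.54%) lay above and 1528 (2.35%) below at an unadjusted p under 0.05. The edgeR test called 7 peaks, 6 above and 1 below. In 26820 peaks (41.2%) all 3 mixtures departed with the same sign, 13846 of them above and 12974 below, and 88 peaks were past 2-fold on average. The mixtures share their pure references, so their signs are not independent of each other. Leaving out βTC6 replicate 5 gave 75 called peaks, 51 above and 24 below, and taking βTC6 from replicates 1 to 4 gave 992, 629 above and 363 below. With replicates 1 to 3 of both lines as the reference, 2673 (4.11%) were called above and 2593 (3.99%) below, so the calls depended on which pure libraries stood for the lines.

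At the glucagon promoter the mixtures lay close to the labelled composition. The peak over the Gcg start site (chr2:62321417-62322494) had levels of 155.3 and 148.1 in αTC1 and 32.2 and 23.3 in βTC6, and of 73.5, 85.5 and 105.6 in the mixtures with 40%, 50% and 60% αTC1. The mixtures lay between the lines in the order of their αTC1 share, and the labelled expectation was 77.3, 89.7 and 102.1. The departure from fitted mixing was -0.01 ± 0.13 (SE). Of the 14 genes listed for the αTC1 side, 13 had a promoter peak, and 0 of them passed the test in either direction. Their median departure from fitted mixing was -0.01 with 7 below, against -0.01 over all peaks. With βTC6 replicate 4 alone it was -0.04 with 8 below, and with replicate 5 alone -0.03 with 8 below. The list goes by name, and 8 of its 13 peaks were not αTC1-biased, those of Irx1, Irx2 and Pou3f4 among them. The Gc peak had 2.18 and 0.87 in αTC1 and 4.71 and 10.9 in βTC6. The promoter peak of Hk1 (hexokinase 1) was at 41.9, 44.3 and 57.1 in the 3 mixtures, with a departure of -0.06 ± 0.14. Irx2 and Irx1, Iroquois homeobox factors, had departures of -0.04 ± 0.10 and -0.23 ± 0.16, and Pou3f4, a POU factor of alpha cells, 0.12 ± 0.15.

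Beta-cell promoters lay mostly below the fitted expectation, without a call. Of 17 listed genes 16 had a promoter peak, 0 passed in either direction, 12 lay below, and their median was -0.17 with a range of -0.51 to 0.24, while 51.2% of all peaks lay below. The list goes by name, and 7 of its 16 peaks were not βTC6-biased, that of Mafa among them, which had 55.3 and 58.9 in αTC1 and 33.0 and 34.7 in βTC6. With βTC6 replicate 4 alone the median was -0.18 with 11 below, and with replicate 5 alone -0.06 with 10 below. The Ins1 promoter peak, over an insulin gene, had 1.64 and 1.16 in αTC1, 41.7 and 70.9 in βTC6, and 40.2, 33.2 and 19.4 in the mixtures. It fell in the order of the βTC6 share, the pure βTC6 libraries differed from each other more than neighbouring mixtures did, and its departure was 0.24 ± 0.22, which became 0.63 with βTC6 replicate 4 alone and 0.02 with replicate 5 alone. Iapp (amylin) had 3.28 and 5.20 in αTC1, 42.5 and 51.4 in βTC6 and 23.9, 26.6 and 16.8 in the mixtures, with a departure of -0.03 ± 0.20. The 40% and 50% αTC1 mixtures lay in reverse order there. Pax4, a repressor of the alpha-cell program, had a departure of -0.02 ± 0.19, Nkx6-1, a homeobox factor of beta cells, 0.04 ± 0.11, Mafa, an activator of insulin transcription, -0.05 ± 0.11, and G6pc2, an islet glucose-6-phosphatase, 0.10 ± 0.17.

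Promoters of housekeeping genes lay mostly below the fitted expectation with each βTC6 reference, and for those of pan-endocrine genes the direction depended on the reference. The pan-endocrine list is a list by name, and 4 of its 16 peaks, that of Glis3 among them, were βTC6-biased. All 16 pan-endocrine genes had a promoter peak, 13 lay below, and their median was -0.08. All 15 housekeeping genes had one, 13 lay below, and their median was -0.10, while promoter peaks as a whole had medians of -0.03, -0.03 and -0.05 in the mixtures and distal peaks 0.02, 0.02 and 0.03. With βTC6 replicate 5 alone the pan-endocrine median was 0.01 with 7 below and the housekeeping median -0.06 with 12 below, and with replicate 4 alone they were -0.19 with 15 below and -0.15 with 14 below. No gene of either list passed the test. Foxa2, a forkhead factor that opens endocrine and liver chromatin, had 68.2 and 50.0 in αTC1, 55.5 and 34.5 in βTC6 and 38.2, 40.6 and 39.0 in the mixtures. All 3 mixtures were below both αTC1 libraries and between the βTC6 libraries, with a departure of -0.32 ± 0.16 (-0.46 with βTC6 replicate 4 alone and -0.19 with replicate 5 alone). Pax6 (-0.08 ± 0.17), Pcsk2 (-0.08 ± 0.14) and Neurod1 (-0.13 ± 0.17), an eye and islet factor, a prohormone convertase and a helix-loop-helix factor, are on chromosome 2 like Foxa2, as is Chgb, a granule protein (0.04 ± 0.12). With βTC6 replicate 5 alone, Pax6, Pcsk2 and Neurod1 were at 0.02, 0.01 and -0.00. Isl1, a LIM homeobox factor on chromosome 13, was at -0.19 ± 0.13. Glis3, a zinc-finger factor, and Tbp, the TATA-binding protein, were the only members of these lists below the fitted expectation at an unadjusted p under 0.05, at -0.42 ± 0.18 and -0.36 ± 0.14, and were named after their values were seen. Against the labelled expectation 3 members of each list were, these 2 included. Of all peaks, 2.35% lay below the fitted and 4.87% below the labelled expectation at that threshold. The housekeeping genes Ywhaz, Actb, Pgk1, Ppia, Gapdh and Sdha ran from -0.26 (Ppia) to 0.01 (Sdha).

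Chromosomes departed from the labelled composition together with the shift of the whole table. The median departure of every one of the 20 chromosomes tested lay below the labelled expectation, and 5 chromosomes (25%) were called below it at an FDR under 5% in the moderated test, namely 5, 7, 11, 17 and 19, with 0 (0%) above. At an unadjusted p under 0.05, 9 chromosomes (45.0%) lay below. Chromosome 11 had -0.12, -0.16 and -0.23 and chromosome 19 had -0.08, -0.11 and -0.17 in the mixtures with 40%, 50% and 60% αTC1. Chromosome 2 was as low, at -0.15, -0.14 and -0.16, without a call (FDR 0.085). After each mixture was centred on its median over peaks, 0 chromosomes were called. Leaving out the 40% mixture left 1 call, leaving out the 50% mixture, the 60% mixture or either αTC1 replicate left 0, leaving out βTC6 replicate 4 gave 20, and leaving out βTC6 replicate 5 gave 8.

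Relative to fitted mixing, chromosomes 2 and 11 lay lowest in the near-equal mixtures. Chromosome 2, with 4458 peaks, had medians of -0.10, -0.08 and -0.06, and chromosome 11, with 2887 peaks, medians of -0.06, -0.09 and -0.11. The highest were chromosome 16 at 0.05, 0.05 and 0.04 and chromosome 18 at 0.05, 0.05 and 0.04. Chromosome 19 was at -0.01, -0.04 and -0.05 and had the smallest unadjusted p (0.075). None of the 20 passed the limma-moderated test, with 0 below (0%), 0 above (0%) and 0 at an unadjusted p under 0.05. The standard errors of the chromosome 2 and 11 values were 0.06 and 0.05.

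Most chromosome values changed with the βTC6 library used as the reference. With βTC6 replicate 4 alone, chromosome 2 departed by -0.18, -0.14 and -0.11, chromosome 16 by 0.11, 0.10 and 0.08, and 18 of 20 chromosomes were called. With βTC6 replicate 5 alone, chromosome 2 departed by -0.02, -0.01 and -0.01, chromosome 16 by 0.01, 0.01 and 0.02, and 0 were called. Chromosome 11 departed by 0.02, -0.03 and -0.06 with that reference and by -0.12, -0.15 and -0.15 with replicate 4, so it stayed below 0 in the mixtures with 50% and 60% αTC1 under both. With 1 βTC6 library the spread between βTC6 replicates is absent from the error, which then comes from the αTC1 pair and the mixtures, and the lone library is assumed to vary like them. The median absolute chromosome departure was 0.040 with replicate 4, 0.013 with replicate 5 and 0.023 with both. βTC6 replicates 1, 2 and 3 as single references gave chromosome 2 values of -0.17 to -0.10, as replicate 4 did. Any αTC1 library as the single αTC1 reference, with both βTC6 replicates kept, left chromosome 2 at -0.10 to -0.05. Chromosome 11 then ran from -0.09, -0.13 and -0.15 with αTC1 replicate 2 to -0.04, -0.08 and -0.09 with αTC1 replicate 5. The median absolute chromosome departure was 0.037 to 0.055 with replicate 1, 2 or 3 as the reference, so replicate 5 was the βTC6 library whose spread over chromosomes lay nearest to that of the mixtures.

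**Figure D3:**
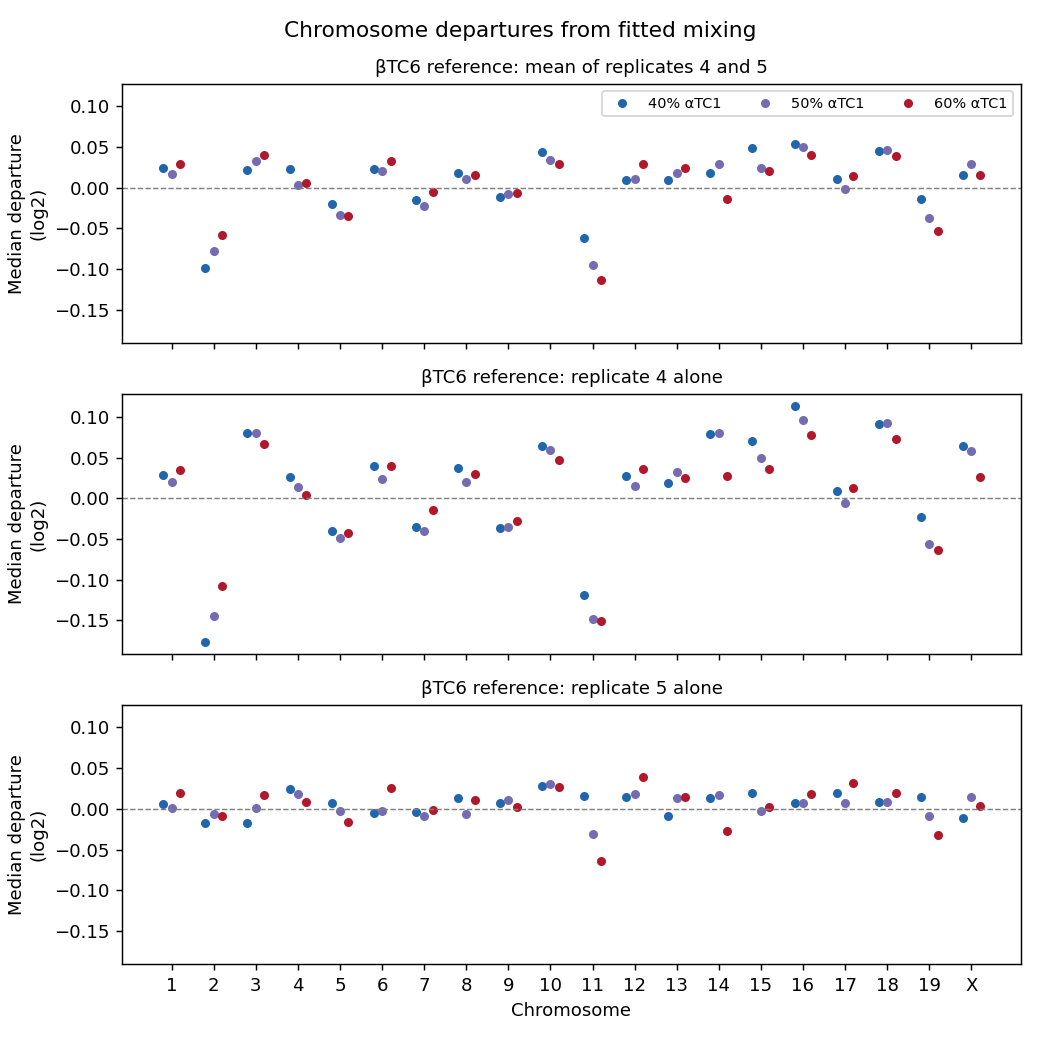
Median departure from fitted mixing (log2) of the 20 chromosomes in each near-equal mixture, with the βTC6 reference taken as the mean of replicates 4 and 5 (top), replicate 4 alone (middle) or replicate 5 alone (bottom). Chromosomes 2 and 11 lie below 0 in the top and middle panels, and the chromosome 2 points come to -0.02, -0.01 and -0.01 in the bottom panel.

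The other 6 mixtures had chromosome 2 below fitted mixing too, from -0.15 at 10% αTC1 to -0.01 at 90% αTC1, and chromosome 11 at -0.12 to -0.02, against the same pure references. GC content moved with the departures. In the 13482 peaks with the lowest GC share (17% to 41%) the medians were 0.05, 0.03 and 0.04 in the 40%, 50% and 60% αTC1 mixtures, and in the 12710 with the highest (60% to 88.5%) they were -0.03, -0.03 and -0.05. The difference between βTC6 replicates 5 and 4 ran the same way, from 0.13 in the former to -0.06 in the latter. That between αTC1 replicates 5 and 4 was 0.01, 0.05, 0.06, 0.04 and -0.12 from the lowest to the highest of 5 classes of GC share. Within each of these 5 classes, chromosome 2 remained below 0 in all 3 mixtures, at -0.12 to -0.00, while the peaks of the other chromosomes lay between -0.04 and 0.06. The difference between βTC6 replicates 5 and 4 in these classes was -0.38 to -0.21 on chromosome 2 and -0.05 to 0.15 elsewhere. The part of GC content and of single pure libraries in the chromosome values was not tested further. Composition fitted to 1 chromosome at a time ran from 38.8% (chromosome 14) to 47.5% (chromosome 11) for the mixture labelled 40%, from 48.4% (16) to 54.5% (9) for 50%, and from 63.0% (15) to 70.1% (9) for 60%.

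Shorter stretches did not stand out beyond error. Of 1291 windows of 50 neighbouring peaks, 0 were called above (0%) and 0 below (0%) fitted mixing by the limma-moderated test, and 18 (1.39%) lay above and 17 (1.32%) below at an unadjusted p under 0.05. On chromosome 2, 76 of 89 windows lay below 0, on chromosome 11, 50 of 57, and over all chromosomes 612 of 1291. The windows at either end are named although none was called. The one furthest below was chr2:142685248-144370716, which holds the Pcsk2 promoter, at -0.31, -0.26 and -0.27. The one furthest above was chr15:13146677-17287274, at 0.22, 0.18 and 0.34. βTC6 replicate 4 was 0.44 above replicate 5 in the former and 0.55 below it in the latter. Leaving out βTC6 replicate 5 gave 434 called windows, 260 above and 174 below, and leaving out replicate 4 gave 1.

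Peaks without reads above the floor in αTC1 gave a reading of the βTC6 part of each mixture. Closed chromatin and DNA missing from αTC1 cannot be told apart there. In 89 peaks every αTC1 library stood at 1 read while βTC6 replicates 1 to 3 reached a level of at least 5, and the near-equal mixtures do not enter that choice. Of these, 53 were on chromosome 11 and 12 on chromosome 14, and 49 lay within chr11:108459224-111177459, a stretch of 2.72 Mb with 60 peaks. The summed level of those 49 peaks was 94.7% to 105.3% of the mean of βTC6 replicates 4 and 5 in the 5 βTC6 libraries. In αTC1 the choice itself fixed it at 49 reads a library. In the mixtures it was 50.0% at 60% βTC6, 39.8% at 50% βTC6 and 26.8% at 40% βTC6, from 2558, 2620 and 1772 reads. The fitted composition and scale predict 54.9%, 46.7% and 32.0%, so each mixture was below both its label and its fit. With βTC6 replicate 5 as the only reference the shares were 52.8%, 42.0% and 28.3%, below the labels, while the fit to that reference predicts 51.1%, 43.4% and 29.8%, so the mixture labelled 40% αTC1 was then above its fit. With replicate 4 alone they were 47.5%, 37.8% and 25.5%, against 55.0%, 46.8% and 32.1% fitted. Over all 89 peaks the shares were 49.9%, 41.6% and 27.6%.

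**Figure D4:**
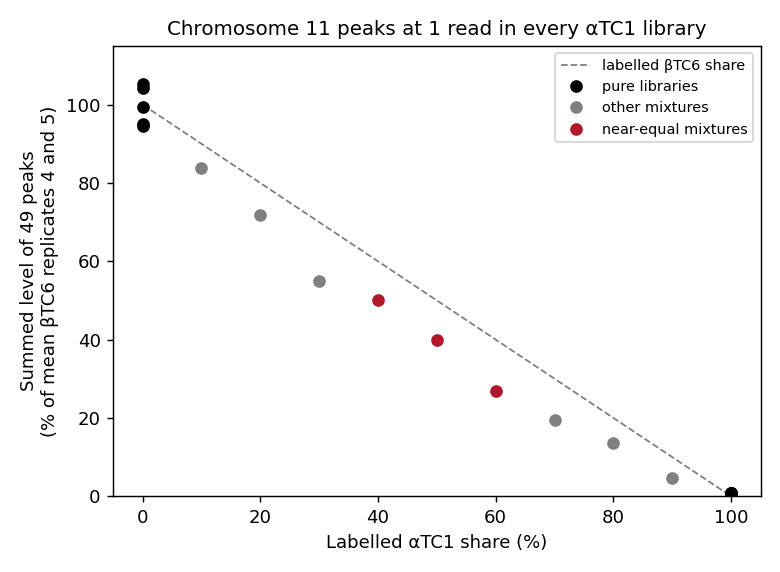
Summed level of the 49 chromosome 11 peaks that stood at 1 read in every αTC1 library (% of the mean of βTC6 replicates 4 and 5) against the labelled αTC1 share (%), 1 point a library, with a dashed line at the labelled βTC6 share. The near-equal mixtures, in red, sit at 50.0%, 39.8% and 26.8%, under the line, as do the other mixtures.

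Of the 49 peaks of that stretch, 29 fell in the order of the 40%, 50% and 60% αTC1 mixtures and 15 were highest at 50%. The 4 described here have high levels and followed the order. The peak near the start of Wipi1, an autophagy gene (chr11:109472210-109473438), had 108.4 and 83.6 in βTC6 and 43.6, 39.3 and 27.2 in the mixtures. The intronic peak near Rgs9, a regulator of G-protein signaling (chr11:109130712-109131761), whose central sequence is printed above, had 69.1 and 73.0 in βTC6 and 45.7, 28.5 and 15.7 in the mixtures. Amz2, a metallopeptidase gene, had 84.0 and 70.7 against 40.1, 28.8 and 18.2, and Prkar1a, a regulatory subunit of protein kinase A, 57.8 and 43.3 against 18.4, 16.1 and 12.7. All 4 peaks were at 1 read in both αTC1 libraries and had departures from fitted mixing of -0.47 to -0.16, none of them called. Of the 49 peaks, 36, 40 and 46 lay below the labelled expectation in the mixtures with 40%, 50% and 60% αTC1 and 29, 38 and 38 below the fitted one, and with βTC6 replicate 5 alone 23, 34 and 27 lay below its fit. Over all peaks 43.3%, 41.2% and 37.1% lay above the labelled expectation and 50.6%, 50.4% and 50.7% above the fitted one. Of the 49, 7 were below the fitted expectation at an unadjusted p under 0.05, against 2.35% of all peaks.

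Because no peak was called, the peaks with the smallest p among those with a mean level of at least 10 and the same sign in all mixtures are described, chosen after their values were seen. The clearest lay on chromosome 9 next to Gm10719 (chr9:3017028-3017507). It had 31.4 and 30.9 in αTC1, 21.83 and 18.97 in βTC6 and 38.4, 41.2 and 47.6 in the mixtures, so every mixture lay above all 4 pure libraries, with a departure of 0.76 ± 0.13. Its unadjusted p in the limma-moderated test was 2.4e-05 (FDR 0.526). Its sequence is repeated in other chromosome 9 peaks, among which reads can be split, so its level is uncertain. It and the 4 other chromosome 9 peaks that share its words summed to 1034 to 1259 in the mixtures, within the range of the αTC1 libraries (885.2 to 1892) and above that of the βTC6 libraries (401.2 to 754.9). Of these 5 peaks it was the only one above expectation in every mixture.

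Of the 5 named peaks above expectation, 2 share sequence with the mitochondrial genome. In 5 peaks of the table at least 50% of the 31-base words also occur in the mitochondrial genome, and all 5 lay above fitted mixing, 4 of them in every mixture. Of all 65053 peaks, 21.3% lay above it in every mixture. This set was looked at because 2 of its members had been picked for a small p above expectation, those 2 are its only members with an unadjusted p under 0.05, and none was called. The nuclear peak near Gm10925 (chr1:24618441-24622964), with 98.8% such words, had 28.8 and 41.6 in αTC1, 110.1 and 68.5 in βTC6 and 109.1, 91.0 and 78.7 in the mixtures, a departure of 0.69 ± 0.16 (FDR 0.987). The peak in an intron of Myo3a, a class III myosin gene (chr2:22444047-22445707), had 143.0 and 206.8 in αTC1, 93.9 and 47.7 in βTC6 and 205.2, 184.9 and 190.7 in the mixtures, a departure of 0.70 ± 0.19. Summed over the 5 peaks, the mixtures reached 338.3, 308.2 and 299.7. Each of the other peaks had at most 22.3 in a mixture, so the sum is mostly that of the 2 picked for a small p. The αTC1 libraries spanned 139.6 to 278.9 and the βTC6 libraries 126.4 to 306.4, so βTC6 replicate 2 overlapped the mixtures and the 4 libraries used for the expected levels did not. The mixtures with 10% to 30% and 70% to 90% αTC1 spanned 193.5 to 351.6, with the highest sum at 80% αTC1. In such peaks reads of mitochondrial and of nuclear DNA cannot be told apart.

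**Figure D5:**
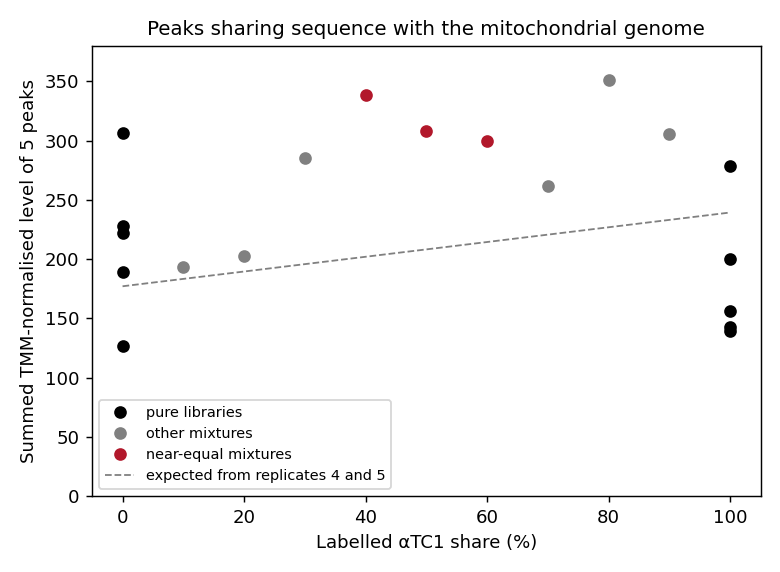
Summed TMM-normalized level of the 5 peaks that share at least 50% of their 31-base words with the mitochondrial genome, against the labelled αTC1 share (%), 1 point a library, with the labelled expectation from pure replicates 4 and 5 as a dashed line. The near-equal mixtures, in red, sit at 338.3, 308.2 and 299.7, above the dashed line.

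The other 7 peaks chosen in this way lay 5 below and 2 above expectation. Above it, the intergenic peak near Gm11161 (chr1:27560377-27561210), the E-box of which is shown above, had 7.64 and 11.8 in αTC1, 5.14 and 8.54 in βTC6 and 15.2, 16.5 and 17.6 in the mixtures, from 81, 113 and 121 reads, a departure of 0.97 ± 0.22. A peak 287.5 kb from Cdh5, the endothelial cadherin gene, had 34.8, 31.9 and 30.5 in the mixtures against 22.4 to 26.7 in the pure libraries (0.49 ± 0.13). In each of these 2 peaks every mixture exceeded every pure library used. Below expectation, the promoter of Kif11, a mitotic kinesin (chr19:37450181-37451195), had 34.7 and 31.2 in αTC1, 31.4 and 27.8 in βTC6 and 17.3, 21.9 and 20.8 in the mixtures (-0.55 ± 0.14). The promoter of Ppp1cc, a catalytic subunit of protein phosphatase 1, had 12.6, 9.06 and 11.1 in the mixtures and 16.6 to 23.4 in the pure libraries (-0.76 ± 0.19). Adc (-0.60 ± 0.16) and Ecd (-0.51 ± 0.14) had the same pattern, with every mixture under every pure library. The intergenic peak 169.9 kb from Six2, a homeobox gene (chr17:86256972-86258000), was βTC6-biased, with 4.64 and 4.62 in αTC1, 33.1 and 27.6 in βTC6 and 8.65, 10.1 and 7.43 in the mixtures, against 18.5, 16.3 and 12.4 expected (-0.77 ± 0.21). None of these peaks was called. With a single βTC6 replicate as the reference all 10 kept their sign, which the mixtures and αTC1 libraries shared with the choice largely fix. The widest ranges were 0.47 (replicate 4) to 0.97 (replicate 5) near Gm10925 and -0.88 to -0.60 near Six2.

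In the neighbouring mixtures with 30% and 70% αTC1 these peaks were checked against pure replicates 1 to 3, libraries that share nothing with the choice. The peak near Gm11161 departed by 0.37 and 0.91, that near Six2 by -0.26 and -0.24 and that at Kif11 by -0.11 and -0.70. The peak next to Gm10719 departed by 0.07 and 0.88, that near Gm10925 by 0.35 and 0.17 and that in Myo3a by 0.81 and 1.03. Cdh5 was at -0.07 and 0.43, Ppp1cc at -0.05 and -0.39, Adc at -0.01 and -0.44 and Ecd at 0.02 and -0.19. At 30% αTC1, 9 of the 10 peaks, all but that in Myo3a, lay closer to expectation than on average in the near-equal mixtures. Among the 100 peaks furthest above expectation by p in the near-equal mixtures, 77 and 79 lay above it in the 30% and 70% mixtures, and among the 100 furthest below, 29 and 32 did, against 50.9% and 51.2% of all peaks. Of the set below, 15% were on chromosome 2 and 18% were βTC6-biased, compared with 6.85% and 12.5% of all peaks. Promoter peaks made up 12% and 13% of the sets above and below and 24.8% of all peaks. In the central 200 bases the E-box CAGCTG was found in 18% of the set above, 12% of the set below and 17.2% of all peaks, and the GC box CCGCCC, on either strand, in 5%, 7% and 15.5%. The sets above and below had median levels of 3.45 and 2.29 against 7.38 over all peaks, and the median log2 difference of βTC6 replicate 5 from replicate 4 was 0.17, -0.36 and 0.02. The part of level and of the βTC6 libraries in these sets was not tested. These sets are descriptions without a test.

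The peak with the highest level of the table (chr2:98506405-98507478) had too wide an error to place it against mixing. It had 63812 and 47310 in αTC1, 27566 and 13192 in βTC6, and 37428, 35210 and 43984 in the mixtures with 40%, 50% and 60% αTC1. Pure replicates of each line differed from each other more than the mixtures did, and its departure was 0.08 ± 0.63. It took up to 5.63% of the reads in peaks of a library.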

How the data were processed

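The members, peak lists and gene lists were chosen with earlier results of these data known. Per the submitters' processing notes and the methods, the authors used Trimmomatic 0.32 to trim ATAC-seq reads and BWA 0.7.9a to place them on mm9, then removed duplicates with Picard 1.95, called peaks in each library with MACS2 2.1.0 and merged those of at least 2 samples with DiffBind 2.2.5. The deposited ATAC-seq signal is a TMM-normalized read count per consensus peak. The deposited FPKM values came from the authors' RSEM 1.2.12 run and served only to check the lines. The deposited expected counts were not used, nor were the columns that hold the authors' own peak classes. No table column was left unmapped (0).

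Whole reads were recovered by dividing each library's values by its lowest one, and 100% of values came out whole within 0.01. Departures were tested in R 4.3.3 with a moderated test built on limma 3.58.1 (variances moderated with a trend on mean level). The residual variance pooled both pure lines and the spread between mixtures with 4 degrees of freedom, the error carried that of the expected level, and p-values were Benjamini-Hochberg adjusted over all peaks, chromosomes or windows. The pseudocount was 1 and no filter on low values was used. Fitted mixing used an αTC1 share and a scale per mixture, by least absolute departure. Chromosomes with fewer than 50 peaks were left out. Line-biased peaks passed limma at 5% FDR with log2 fold changes beyond 2 either way. edgeR 4.0.16 was run on the recovered reads as an alternative. The test was also run on simulated libraries, and the outcome is not reported here. Figures were drawn with matplotlib 3.10.9 in Python 3.11.15.

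Peaks were joined to the nearest start site of GENCODE vM1 on the same build, and promoter peaks had their centre within 2 kb of one. Coordinates are as deposited. The rule for naming was all 20 chromosomes, up to 6 promoter peaks a list with the highest mean level, and called peaks and windows. As no peak or window was called, 5 peaks in each direction were named by smallest p. Some listed genes are not reported here. Motifs searched on both strands of the central 200 bases were TGAGTCA (AP-1), CAGCTG (E-box), TAATTA (homeodomain), TGTTTAC (forkhead), CCGCCC (Sp/KLF) and the cAMP response element, and a match is not a bound site.

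A floor of 3 reads corresponded to 2.89e-05% to 5.64e-05% of the reads in peaks of the 7 libraries, and covers counting error only, since reads carry no molecular identifiers. Alternatives covered the pseudocount, filters, scaling, pure references, fits, tests and leaving out each library.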

Additional observations from a re-analysis of the deposited data

Results flagged for a closer look

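Within each line, the median over a chromosome's peaks of a library's log2 level minus the line mean was checked in the 5 libraries for a sample far from the others by Dixon's test. Of 40 groups tested, 13 held one, where chance gives about 5% of groups. βTC6 replicate 5 was the sample in 10 of them. It lay at -0.22 on chromosome 2, where the other replicates lay between 0.05 and 0.07, and at -0.059 on chromosome 5. It lay at 0.17 on chromosome 3, 0.027 on chromosome 4, 0.069 on chromosome 13, 0.15 on chromosome 14, 0.081 on chromosome 15, 0.16 on chromosome 16, 0.15 on chromosome 18 and 0.14 on chromosome X. αTC1 replicate 5 was the sample in the other 3, at 0.014 on chromosome 6, 0.012 on chromosome 12 and 0.039 on chromosome 18. Both libraries enter the expected levels of the mixtures, and the cause was not tested.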

How the results depend on the processing

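With the expected levels from pure replicates 1 to 3, 5846 peaks departed from the labelled composition (1874 above, 3972 below) and 5266 from the fitted one, along with 11 and 16 chromosomes, 689 windows and 6 promoter peaks of the gene lists. With all 5 pure replicates the counts were 165 and 5 peaks, 10 and 4 chromosomes and 80 windows. edgeR called 5 and 7 peaks. Chromosome means in place of medians gave 9 chromosomes off the labelled composition, and centring each mixture, added after the data were seen, gave 0. Leaving out 1 library gave 0 to 48 and 0 to 75 peaks, 0 to 20 and 0 to 18 chromosomes and 0 to 434 windows. The highest counts off fitted mixing came without βTC6 replicate 5. Taking βTC6 from replicates 1 to 4, also added later, gave 992 peaks. The cause was not tested. Fitted αTC1 shares ran from 41.5% to 46.1%, 50.0% to 54.2% and 64.5% to 68.0% over the libraries left out. Line-biased peaks alone gave 68.0% for the mixture labelled 60%, and pure replicates 1 to 3 gave 40.7% for that labelled 40%. Line-biased peaks numbered 11292, 2291 at a pseudocount of 5, and 11097 to 11837 without 1 library. For them a replicate block gave 11292 peaks too, but samples with the same number did not deviate together (correlations of -0.004 to 0.006), so the numbers do not pair them, and mixtures have 1 library each. Of 578 single values under other settings, 531 shifted by less than 1 standard error without a call, 24 shifted by more and 23 passed the threshold. A reversal was counted only for values that passed, and there were 0. Changes of sign without a call were not counted, such as Pax4 from -0.02 to 0.31 with βTC6 replicate 4 alone. The SD of departures was largest in the peaks of lowest level, at 0.46 to 0.50, and the part of depth in it was not tested.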
